A study of Mus musculus with 8 samples.

Results

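The proteasome genes of the mouse egg were taken as the protein-coding genes whose GENCODE M21 symbol runs from Psma to Psmg followed by a number. The annotation holds 50 such genes, and all 50 were among the 24860 genes listed in each library. They were read as 19 genes of the core particle, 23 genes of the regulatory particle, the other activators and the inhibitor, and 7 assembly factors. The last match, Psmc3ip, shares the letters only: it encodes a cofactor of meiotic recombination, not a proteasome protein, and it is kept apart. Of the 50 genes, 34 averaged 1 FPKM or more across all libraries and were tested, and 16 lay below this filter. The genes lie on 16 chromosomes.

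The proteasome is the protease that degrades most ubiquitin-tagged proteins of the cytosol and nucleus. Its core particle is a barrel of stacked rings, in which alpha subunits form the gated outer rings and beta subunits the inner rings, and 3 of the beta subunits cut peptide bonds. The regulatory particle caps the barrel. Its base holds a ring of ATPases that unfold substrates and subunits that bind ubiquitin, and its lid carries the deubiquitinase that removes the tag. Other activators can cap the barrel in its place. Dedicated assembly factors pair the subunits in order and do not stay in the finished particle. In the egg, proteasomal degradation of cyclin B and securin lets meiosis proceed past metaphase, and many maternal proteins are cleared in this way after fertilization.

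The RNA came from MII oocytes, eggs that rest in metaphase of meiosis II, of 6-week-old (postnatal day 42) C57BL/6 females. One group was Esrp1-/- (here Esrp1_KO), lacking by label the splicing regulator ESRP1, and the other was wild type (WT), with 4 libraries each. A library was made with Smart-seq2, which primes on poly(A) tails, from a tube of 15 directly lysed oocytes. How the Esrp1 allele was made, and whether a tube mixed several females, is not given in the sources used here. The submitters call the 4 libraries of a group biological replicates. The p-values measure the spread between these tubes, which may be partly technical.

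Values are FPKM as the authors deposited them, read counts scaled by a length per gene and library total. They can be set side by side between genes only roughly. For most values the length fitted the merged exons of a gene, which can exceed its longest transcript (Psmd9, 7248 against 2634 bases). The FPKM are relative levels: fewer molecules per egg and a smaller share of the egg's RNA cannot be told apart. With priming on poly(A) tails, tail length was not separated from amount. Library totals worked out from the files were 24910431 to 32337967 reads in Esrp1_KO and 25018182 to 28932106 in WT. In 31 of the 34 tested proteasome genes the reads per library could be recovered, and they ran from 14 to 12459. The targeted gene, Esrp1, had 2.31 to 3.83 FPKM in Esrp1_KO and 16.2 to 19.5 FPKM in WT, a ratio of the means of 0.188 (log2 fold change −2.12 ± 0.15, SE; adjusted p = 1.3e-05, limma). All 10 oocyte markers were expressed, with a summed level of 8943 to 10205 FPKM in Esrp1_KO and 8214 to 9118 FPKM in WT. Of 12 cumulus and granulosa markers 7 were listed, summing to 1.60 to 2.41 FPKM in Esrp1_KO and 5.53 to 7.24 FPKM in WT. Nearly all of that was Cyp19a1, while the cumulus genes Has2, Ptx3 and Tnfaip6 stayed at or near 0. The 4 blood markers listed summed to at most 0.134 FPKM in Esrp1_KO and 0.449 FPKM in WT. The 9 immune markers summed to 1.95 to 11.3 FPKM in Esrp1_KO and 1.20 to 2.25 FPKM in WT. The highest of these values, 11.3, was that of Esrp1_KO replicate 3, with 5.44 FPKM of Lyz2 and 3.50 FPKM of Cd68. The 10 markers of the 2-cell embryo summed to 31.2 to 42.8 FPKM in Esrp1_KO and 30.1 to 47.8 FPKM in WT. Nearly all of this sum was Tcstv1 and Tcstv3, and the other listed 2-cell markers each averaged under 1 FPKM. The part of these other markers in the results below was not tested, and the calls that change without 1 library are named beside the genes.

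A few proteasome genes differed between Esrp1_KO and WT eggs, in both directions. Of the 34 tested, 5 were higher in Esrp1_KO (Psmb2, Psmc4, Psmc6, Psmd5 and Psmd9), 2 were lower (Psma1 and Psmg1) and 27 did not pass an adjusted p of 0.05 (limma on log2(FPKM + 1), Benjamini-Hochberg adjustment over the 8021 genes tested). The 7 called genes are 20.6% of those tested, where 36.9% of all genes were called. Split by direction, 14.7% of the proteasome genes were higher and 5.88% lower, against 13.9% and 23.1% of all genes. The median log2 fold change was 0.19 over the proteasome genes and −0.06 over all genes. In 5 proteasome genes all Esrp1_KO values lay above all WT values and in 3 all lay below, where 13.5% and 23.3% of all genes tested did so. At an unadjusted p of 0.05, 12 of the 34 passed, and 3733 of the 8021 genes (46.5%) did. The labels name no pairing of libraries across the genotypes. Same-numbered libraries deviated together (correlations of 0.226 to 0.317), but so did some with other numbers (up to 0.402). With the replicate number as a block, as an alternative, 10 proteasome genes were higher and 3 lower, against 17.2% and 25.3% of all genes. The block added Psma7, Psmc3, Psmd4, Psmd11 and Psmf1 to those higher and Psmb3 to those lower, and lost none of the 7. With the split described further on, which was found in these data, as a second term, 11 proteasome genes were higher and 3 lower. There 17.7% of all genes were higher and 26.3% lower, together 44.0%.

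**Figure D1:**
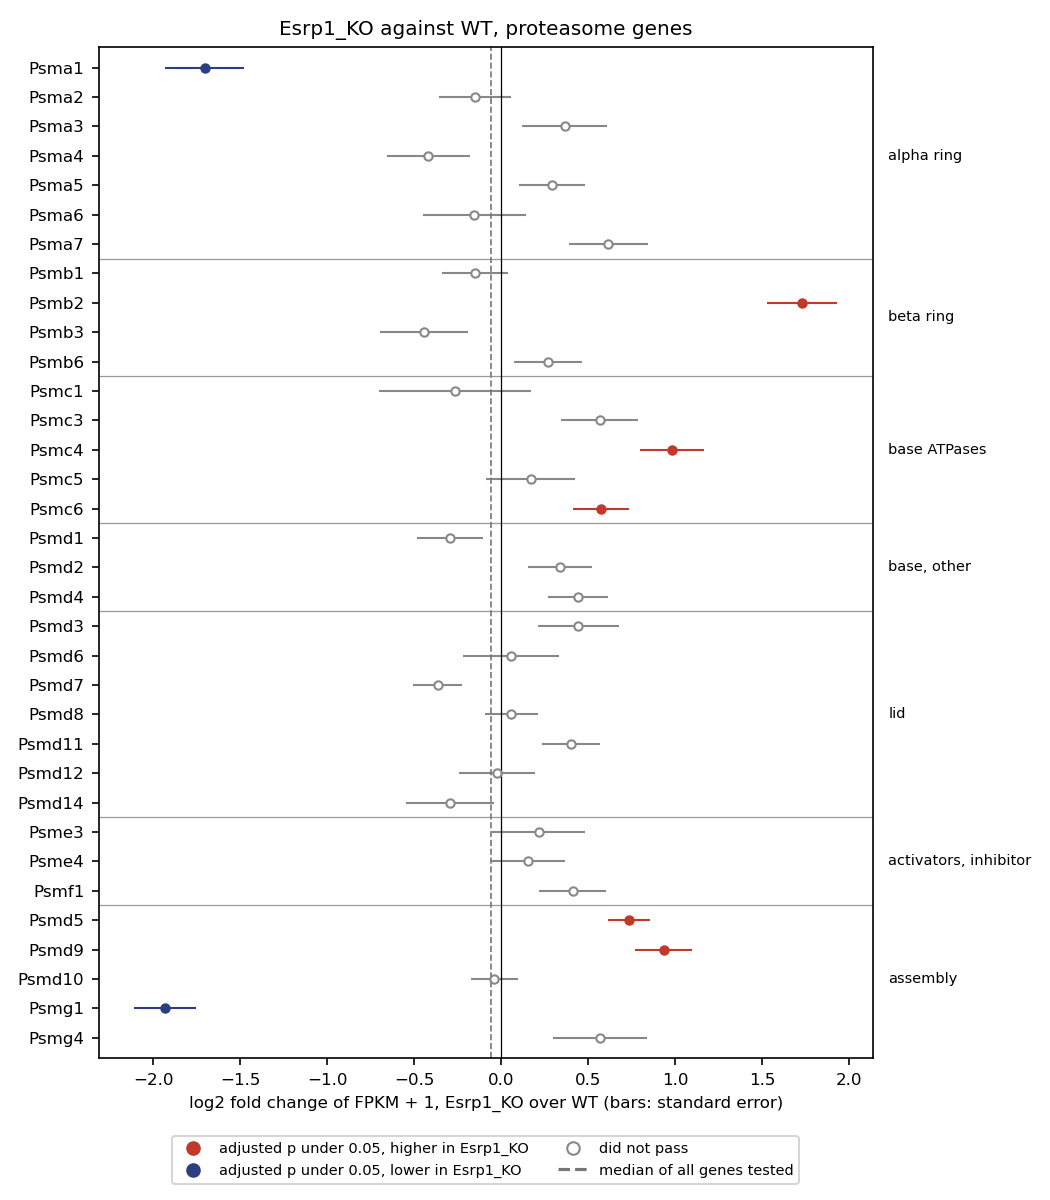
Log2 fold change of FPKM + 1, Esrp1_KO over WT, for the 34 proteasome genes tested, by class, with bars of 1 standard error and a dashed line at the median of all genes (−0.06). The 5 genes higher in Esrp1_KO lie between 0.57 and 1.73, the 2 lower ones at −1.70 and −1.93, and the other 27 between −0.45 and 0.62.

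No motif of those searched was found in all start regions of the called genes. The regions are shown because NFE2L1 and NFE2L2, transcription factors known to switch on proteasome genes through the antioxidant response element, were themselves called in these eggs, in opposite directions (given further on). RefSeq (GRCm38.p6) gave promoters for 42 of the 50 genes. In a window from 250 bases before to 50 after the start, the core of the element, TGACNNNGC on either strand, was found in 6 of the 42 (14.3%), against 13.99% of the 27025 genes of the table and 17.0% of 5799 tested genes matched to it. The NF-Y box CCAAT, on either strand, was found in 15 of the 42 (35.7%), against 41.1% and 45.0%. Among the called genes with a promoter, Psmc6 and Psmd9 held the element, from positions −227 and −31 relative to the start, and Psma1, Psmg1, Psmc4 and Psmd5 did not. Psma1 held 2 CCAAT boxes. The RefSeq start of Psmd9 lies well inside its GENCODE M21 interval (123169413 to 123250131), so it differs from the start of that gene model. A match of letters is a description of the sequence and not a binding site. The stretches upstream of the start are printed 5′ to 3′ on the gene's strand for the 2 genes that were lower and for the 2 that hold the element, with matches to the 2 motifs in capitals. For Psmc6 the first 200 of the 250 bases are shown, so its stretch ends 50 bases before the start.
Psma1, chr7:114276117-114276366, minus strand: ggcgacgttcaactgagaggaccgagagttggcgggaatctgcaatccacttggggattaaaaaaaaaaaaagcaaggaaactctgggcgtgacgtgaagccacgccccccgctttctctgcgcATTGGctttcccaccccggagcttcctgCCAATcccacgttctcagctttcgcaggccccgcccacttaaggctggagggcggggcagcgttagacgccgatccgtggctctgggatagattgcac
Psmg1, chr16:95990961-95991210, minus strand: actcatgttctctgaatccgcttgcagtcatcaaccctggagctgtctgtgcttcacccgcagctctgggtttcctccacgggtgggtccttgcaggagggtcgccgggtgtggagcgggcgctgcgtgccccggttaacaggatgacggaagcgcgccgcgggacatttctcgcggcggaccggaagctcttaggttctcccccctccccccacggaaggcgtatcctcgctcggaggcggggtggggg
Psmc6, chr14:45329574-45329773, plus strand: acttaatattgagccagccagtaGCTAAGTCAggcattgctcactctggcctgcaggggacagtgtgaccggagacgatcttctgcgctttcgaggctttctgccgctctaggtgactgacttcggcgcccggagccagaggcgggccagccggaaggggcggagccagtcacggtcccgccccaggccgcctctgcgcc
Psmd9, chr5:123227940-123228189, plus strand: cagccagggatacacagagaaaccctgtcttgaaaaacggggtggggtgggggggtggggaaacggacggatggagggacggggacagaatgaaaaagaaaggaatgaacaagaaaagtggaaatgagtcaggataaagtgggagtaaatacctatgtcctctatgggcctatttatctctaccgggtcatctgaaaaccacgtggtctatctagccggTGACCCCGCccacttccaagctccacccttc

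The alpha ring of the core particle was represented by 7 tested genes of 8. Psma1 was the only one of them to pass (14.3%, against 36.9% of all genes), lower in Esrp1_KO. Psma1 (chromosome 7, 114264606 to 114276118, minus strand, GRCm38) had 9.27, 16.3, 21.3 and 20.5 FPKM in Esrp1_KO replicates 1 to 4, against 57.5, 56.8, 56.2 and 48.8 FPKM in WT replicates 1 to 4. The highest Esrp1_KO value lay far below the lowest WT value. The means were 16.8 ± 5.51 and 54.8 ± 4.06 FPKM (SD, n = 4 each), a ratio of 0.307 and a log2 fold change of −1.70 ± 0.23 (SE, adjusted p = 0.000423, limma). Psma2, an alpha subunit with the highest level of the ring, had 59.2, 113, 98.7 and 77.4 FPKM in Esrp1_KO against 82.3, 93.2, 120.0 and 84.9 FPKM in WT, and the groups overlapped (adjusted p = 0.605, limma). Psma7 had 36.5, 82.2, 65.9 and 55.1 FPKM in Esrp1_KO against 34.1, 45.3, 37.7 and 32.8 FPKM in WT. Its log2 fold change of 0.62 ± 0.23 missed the threshold (adjusted p = 0.0584, limma) and passed with the replicate block (0.0140) and without Esrp1_KO replicate 1 (0.00564). The other 4 tested members, Psma3 to Psma6, had log2 fold changes of −0.42 to 0.36 with overlapping groups. Of these, Psma4 passed as lower without Esrp1_KO replicate 2 (adjusted p = 0.0231, limma). In Psma5, 49.96% of the 50-base stretches of the transcripts recur in other annotated genes, so its reads could be split between copies. Psma8, the alpha subunit of the testis proteasome, had 0.0209 to 0.237 FPKM in Esrp1_KO and 0 to 0.112 FPKM in WT.

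The beta ring held the member with the largest rise. Psmb2 (chromosome 4, 126677630 to 126709714, plus strand), a beta subunit without a catalytic site, had 69.0, 136, 113 and 82.4 FPKM in Esrp1_KO against 28.1, 31.8, 29.5 and 24.9 FPKM in WT. The lowest Esrp1_KO library lay above the highest WT library by more than the whole WT range. The means were 100.1 ± 30.2 and 28.6 ± 2.88 FPKM (SD, n = 4 each), a ratio of 3.50 and a log2 fold change of 1.73 ± 0.20 (SE, adjusted p = 0.000203, limma). Psmb1, Psmb3 and Psmb6, the other tested members, had log2 fold changes of −0.45 to 0.27 and did not pass. Psmb6, which carries the caspase-like active site, averaged 27.0 ± 8.41 FPKM in Esrp1_KO and 21.7 ± 2.69 FPKM in WT (SD, n = 4 each). Psmb3 averaged 6.57 ± 2.59 FPKM in Esrp1_KO and 9.05 ± 2.22 FPKM in WT, with an adjusted p of 0.195 by limma and of 0.0294 with the replicate block. The other catalytic subunits were low in FPKM: Psmb5, with the chymotrypsin-like site, averaged 0.182 ± 0.197 FPKM in Esrp1_KO and 0.128 ± 0.124 FPKM in WT, and 54.1% of its 50-base stretches recur in other genes. Psmb7, with the trypsin-like site, averaged 0.489 ± 0.176 FPKM in Esrp1_KO and 0.528 ± 0.335 FPKM in WT. Psmb4 ran from 0.412 to 1.19 FPKM in Esrp1_KO and from 0.177 to 0.486 FPKM in WT, below the filter. Summed over its 7 genes the beta ring had 97.1, 190.3, 152 and 116 FPKM in Esrp1_KO against 61.3, 73.2, 68.3 and 55.7 FPKM in WT. Psmb2 alone made up the larger part of each Esrp1_KO sum.

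The beta subunits of the immunoproteasome (Psmb8, Psmb9 and Psmb10), which replace the catalytic subunits in immune cells, and the thymus subunit Psmb11 were near 0 in every library. Their sum was 0.0508, 0.0378, 0.253 and 0.0167 FPKM in Esrp1_KO and 0.102, 0.122, 0.163 and 0.0570 FPKM in WT. Psmb11 had the highest mean of the 4, with 0.0522 FPKM in Esrp1_KO and 0.0579 FPKM in WT. Psmb8 and Psmb9 were listed above 0 in 1 library, Esrp1_KO replicate 3, with 0.0128 and 0.0191 FPKM, and for Psmb9 this value stood for 2 reads. That library also had the highest immune marker sum. The PA28 activator genes Psme1 and Psme2, which work beside the immunoproteasome, had at most 0.0948 and 0.386 FPKM in Esrp1_KO and 0.0515 and 0.770 FPKM in WT. In Psme2, 28.3% of the 50-base stretches recur in other genes.

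In the base of the regulatory particle, 2 of 5 tested ATPase genes were higher and none lower, against 13.9% and 23.1% of all genes. Of 3 non-ATPase genes none passed by limma or by voom on recovered reads, and 1 had an unadjusted p under 0.05. Over all genes 36.9% passed by limma and 46.5% had such a p, and both classes hold few genes. Psmc4 (chromosome 7, 28041707 to 28050101, minus strand), an ATPase of the hexameric ring, had 6.49, 9.54, 8.07 and 5.18 FPKM in Esrp1_KO against 4.05, 2.83, 3.20 and 2.59 FPKM in WT. The groups did not overlap, and the means were 7.32 ± 1.89 and 3.17 ± 0.640 FPKM (SD, n = 4 each), a ratio of 2.31 and a log2 fold change of 0.98 ± 0.19 (SE, adjusted p = 0.00276, limma). Psmc6 (chromosome 14, 45329788 to 45349705, plus strand), another ATPase and the one with the highest mean over all libraries, had 56.4, 91.1, 80.1 and 69.1 FPKM in Esrp1_KO against 50.5, 51.0, 53.2 and 41.2 FPKM in WT. Its lowest Esrp1_KO value stood close above its highest WT value. The means were 74.2 ± 14.9 and 48.97 ± 5.33 FPKM (SD, n = 4 each), a ratio of 1.51 and a log2 fold change of 0.57 ± 0.16 (SE, adjusted p = 0.0202, limma). This call was lost without Esrp1_KO replicate 3 (adjusted p = 0.0544), without WT replicate 4 (0.0622), with no filter (0.0521) and in replicates 1 and 4 alone (0.126, limma throughout). Psmc3 averaged 3.71 ± 1.005 FPKM in Esrp1_KO and 2.23 ± 0.949 FPKM in WT, with an adjusted p of 0.0704 by limma, of 0.0102 with the replicate block and of 0.0181 without WT replicate 2. Psmc1 ranged widely, with 16.4, 91.3, 47.6 and 48.8 FPKM in Esrp1_KO against 43.6, 80.1, 52.7 and 40.8 FPKM in WT (adjusted p = 0.670, limma). Psmc2, below the filter, averaged 0.700 ± 0.173 FPKM in Esrp1_KO and 1.09 ± 0.215 FPKM in WT.

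Of the base subunits without ATPase activity, Psmd4, a ubiquitin receptor, had the highest mean over all libraries, with 86.1, 66.7, 57.5 and 54.2 FPKM in Esrp1_KO against 58.1, 42.6, 41.7 and 49.9 FPKM in WT. Its lowest Esrp1_KO value fell inside the WT range, with an adjusted p of 0.0708 by limma and of 0.0233 with the replicate block. The scaffold subunits Psmd1 and Psmd2 had log2 fold changes of −0.30 and 0.34 and did not pass.

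In the lid, none of the 7 tested genes passed by limma or by voom on recovered reads, and 2 had an unadjusted p under 0.05. Over all genes 36.9% passed by limma and 46.5% had such a p. Psmd7, the non-catalytic partner of the lid deubiquitinase and the lid gene with the highest mean over all libraries, had 14.2, 19.3, 19.4 and 16.6 FPKM in Esrp1_KO against 26.6, 20.8, 20.9 and 22.2 FPKM in WT. The groups did not overlap, but the log2 fold change was −0.37 ± 0.14 with an adjusted p of 0.0676 (limma). The deubiquitinase Psmd14 averaged 6.90 ± 2.07 FPKM in Esrp1_KO and 8.64 ± 2.67 FPKM in WT (adjusted p = 0.394, limma). Psmd11 averaged 14.2 ± 3.10 FPKM in Esrp1_KO and 10.5 ± 1.498 FPKM in WT, with an adjusted p of 0.0854 by limma and of 0.0393 with the replicate block. Psmd13 lay far below the other lid genes, at 0.0310 to 0.147 FPKM in Esrp1_KO and 0.0118 to 0.168 FPKM in 3 WT libraries, with 0.921 FPKM in WT replicate 1.

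Among the other activators and the inhibitor none of 3 tested genes passed by limma or voom, and none had an unadjusted p under 0.05. The shares over all genes were 36.9% by limma and 46.5%, and 3 genes are few. Psme3, the PA28-gamma activator of the nucleus, had 95.7, 43.6, 41.0 and 63.7 FPKM in Esrp1_KO against 56.3, 39.9, 42.1 and 62.4 FPKM in WT (adjusted p = 0.560, limma). Psme4, the PA200 activator, averaged 28.2 ± 10.9 FPKM in Esrp1_KO and 24.1 ± 0.681 FPKM in WT. The inhibitor gene Psmf1 averaged 4.32 ± 1.33 FPKM in Esrp1_KO and 2.94 ± 0.559 FPKM in WT, with an adjusted p of 0.122 by limma and of 0.0405 with the replicate block.

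Of the 5 assembly factors tested, 3 were called, in both directions (60.0%, against 36.9% of all genes), a share that rests on few genes. Psmg1 (chromosome 16, 95979933 to 95990960, minus strand) encodes a chaperone that works as a dimer with the product of Psmg2 in building the alpha ring. It had 8.35, 12.5, 11.1 and 8.45 FPKM in Esrp1_KO against 32.1, 47.0, 48.7 and 37.8 FPKM in WT, the largest fall on the log2 scale among the proteasome genes tested. The means were 10.1 ± 2.06 and 41.4 ± 7.85 FPKM (SD, n = 4 each), a ratio of 0.244 and a log2 fold change of −1.93 ± 0.18 (SE, adjusted p = 5.9e-05, limma). The partner gene Psmg2 had 0.0329 to 0.265 FPKM in Esrp1_KO and 0 to 0.143 FPKM in WT, below the filter. Psmg3 was also below it, and Psmg4, which works with Psmg3, averaged 2.63 ± 1.20 FPKM in Esrp1_KO and 1.44 ± 0.818 FPKM in WT (adjusted p = 0.125, limma). Without WT replicate 2, which stood apart with 2.66 FPKM, Psmg4 passed as higher (adjusted p = 0.0342, limma).

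The chaperones of the base ATPases, Psmd5 and Psmd9, were both higher in Esrp1_KO. Psmd5 (chromosome 2, 34849734 to 34874968, minus strand) had 23.9, 19.4, 21.3 and 25.1 FPKM in Esrp1_KO against 13.7, 13.1, 12.0 and 13.5 FPKM in WT. The means were 22.4 ± 2.59 and 13.1 ± 0.766 FPKM (SD, n = 4 each), a ratio of 1.72 and a log2 fold change of 0.73 ± 0.12 (SE, adjusted p = 0.00129, limma). Within each group the libraries lay close together, and the groups did not overlap. Psmd9 (chromosome 5, 123169413 to 123250131, plus strand) had 52.0, 44.4, 40.1 and 36.6 FPKM in Esrp1_KO against 25.6, 16.7, 22.3 and 24.4 FPKM in WT. The means were 43.2 ± 6.62 and 22.2 ± 3.93 FPKM (SD, n = 4 each), a ratio of 1.94 and a log2 fold change of 0.93 ± 0.16 (SE, adjusted p = 0.00181, limma). The reads of Psmd9 are less certainly its own, since 25.5% of its exon bases are covered by the gene Gm26745 on the opposite strand, which this unstranded method cannot separate, and 24.9% of its 50-base stretches recur in other genes. Psmd10, the third chaperone of the base, averaged 18.4 ± 2.85 FPKM in Esrp1_KO and 18.9 ± 2.02 FPKM in WT (adjusted p = 0.847, limma). The recombination cofactor Psmc3ip, outside the proteasome, had 0.0850 to 0.175 FPKM in Esrp1_KO and 0.0879 to 0.375 FPKM in WT.

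Subunits that sit in the particle in equal numbers differed widely in FPKM. Over the 14 subunits of the alpha and beta rings without Psma8, means ran from 0.182 FPKM (Psmb5) to 100.1 FPKM (Psmb2) in Esrp1_KO, a 549-fold range with 3 genes under 1 FPKM. In WT they ran from 0.128 FPKM (Psmb5) to 95.1 FPKM (Psma2), a 742-fold range with 4 genes under 1 FPKM. Over the 17 genes of base and lid the means ran from 0.0865 FPKM (Psmd13) to 74.2 FPKM (Psmc6) in Esrp1_KO, and from 0.280 FPKM (Psmd13) to 54.3 FPKM (Psmc1) in WT. Summed by particle, the core genes had 223, 446, 372 and 294 FPKM in Esrp1_KO against 265, 300.4, 316 and 248.7 FPKM in WT. The regulatory genes summed to 494, 562, 439 and 456 FPKM in Esrp1_KO against 449, 437, 388 and 412 FPKM in WT. The sums of the assembly factors differed least, with 97.1 ± 6.65 FPKM in Esrp1_KO and 97.2 ± 5.16 FPKM in WT (SD, n = 4 each), although 3 of these factors were called.

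**Figure D2:**
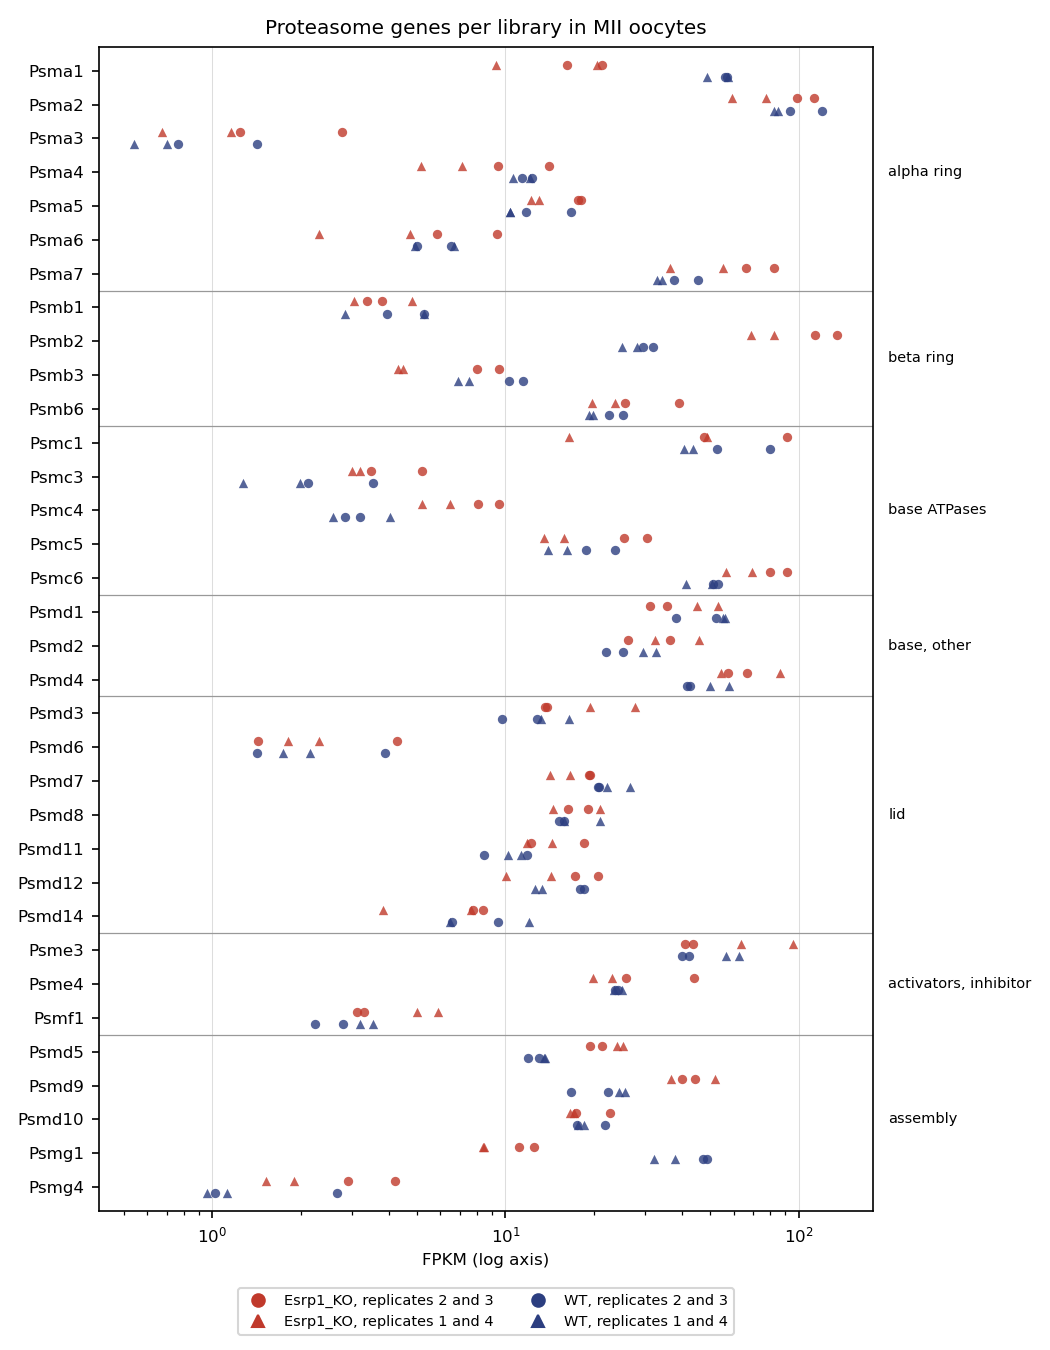
FPKM on a log axis of the 34 proteasome genes tested, by class, with a point for each library: Esrp1_KO above WT in each row, circles for replicates 2 and 3 and triangles for replicates 1 and 4. The groups stand apart most in Psmb2 (69.0 to 136 FPKM in Esrp1_KO, 24.9 to 31.8 FPKM in WT), Psma1 and Psmg1, and in many core and ATPase rows the circles lie to the right of the triangles in both genotypes.

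Within each genotype, replicates 2 and 3 parted from replicates 1 and 4, and most core and ATPase genes were higher in replicates 2 and 3. The split is not in the labels, and it was found in these data, so its size is given as a description with no test. Of the 34 genes, 18 (52.9%) had a higher mean log2(FPKM + 1) in replicates 2 and 3 than in replicates 1 and 4 in both genotypes, against 30.9% of all genes, and 8 (23.5%) had a lower one in both, against 40.0% of all genes. With no overlap between the 2 pairs in either genotype, 12 (35.3%) were higher and 5 (14.7%) lower, against 10.3% and 14.7% of all genes. Of the 11 core genes tested 9 were higher in replicates 2 and 3 in both genotypes and none lower, and of the 5 ATPase genes 4 were higher. The reverse held for the non-ATPase genes of the base (3 of 3 lower) and for 2 of the 3 activator and inhibitor genes. The other classes were divided, with 2 higher, 1 lower and 4 mixed among the 7 lid genes, and 3 higher and 2 lower among the 5 assembly factors. The median difference, replicates 2 and 3 minus replicates 1 and 4, was 0.45 in Esrp1_KO and 0.10 in WT over the proteasome genes, and 0.01 in Esrp1_KO and −0.07 in WT over all genes.

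The largest difference was that of the ATPase gene Psmc1. In Esrp1_KO it had 91.3 and 47.6 FPKM in replicates 2 and 3, against 16.4 and 48.8 FPKM in replicates 1 and 4, a log2 difference of 1.19. In WT it had 80.1 and 52.7 FPKM in replicates 2 and 3, against 43.6 and 40.8 FPKM in replicates 1 and 4, a log2 difference of 0.61. The pairs thus overlapped in Esrp1_KO and not in WT. The beta subunit Psmb3 came next, and its pairs stood apart in both genotypes. In Esrp1_KO it had 9.49 and 7.995 FPKM in replicates 2 and 3, against 4.48 and 4.31 FPKM in replicates 1 and 4, a log2 difference of 0.85. In WT it had 10.3 and 11.5 FPKM in replicates 2 and 3, against 6.87 and 7.48 FPKM in replicates 1 and 4, a log2 difference of 0.54. At the other end, the activator gene Psme3 was lower in replicates 2 and 3, by log2 differences of −0.87 in Esrp1_KO and −0.52 in WT. The lid gene Psmd3 followed, with −0.71 in Esrp1_KO and −0.37 in WT. In Esrp1_KO it had 13.8 and 13.6 FPKM in replicates 2 and 3, against 27.6 and 19.4 FPKM in replicates 1 and 4.

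**Figure D3:**
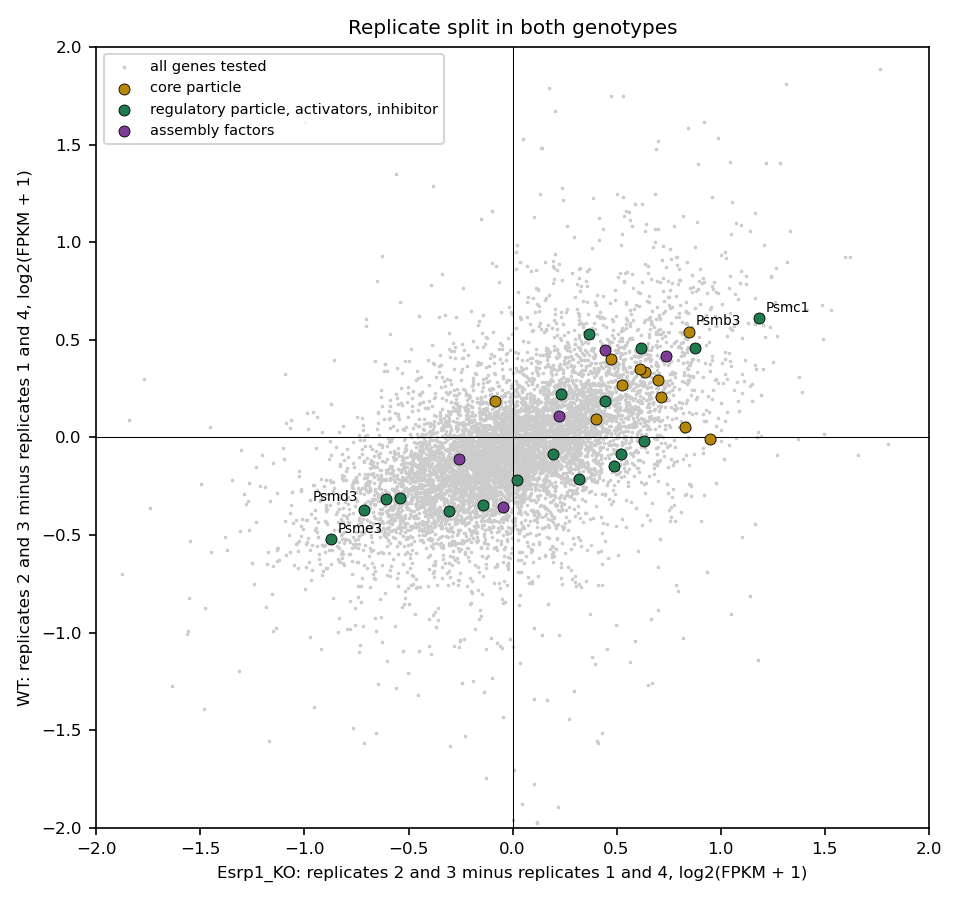
Difference of mean log2(FPKM + 1), replicates 2 and 3 minus replicates 1 and 4, in Esrp1_KO (horizontal axis) and in WT (vertical axis), for all genes tested (grey, 15 of them outside the axes) and the proteasome genes by particle. Psmc1 lies at 1.19 and 0.61 and Psme3 at −0.87 and −0.52, and 9 of the 11 core genes lie in the upper right part.

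Among the proteasome genes exon length moved with this split. The oocyte marker sum stood apart between its sides in each genotype, while library totals and immune marker sums overlapped. The 18 genes higher in replicates 2 and 3 in both genotypes had a median exon length of 2335 bases (555 to 3894), and the 8 lower ones 5704 bases (2808 to 7265). Over all genes tested these medians were 3395 and 4397.5 bases. Across the 34 genes Spearman's rho of the split with exon length was −0.57, and over 8016 genes it was −0.14. With the GC content of the longest transcript of each gene rho was −0.01 and −0.16. Genes share their libraries, so these values are descriptions only. Library totals were 24910431 to 28658767 reads in replicates 2 and 3 and 26375543 to 32337967 in replicates 1 and 4. The immune markers summed to 1.20 to 11.3 FPKM in replicates 2 and 3 and 1.55 to 2.71 FPKM in replicates 1 and 4. For the 2-cell markers, nearly all Tcstv1 and Tcstv3, the sums were 31.2 to 47.8 FPKM in replicates 2 and 3 and 30.1 to 35.5 FPKM in replicates 1 and 4. These sums overlapped in Esrp1_KO and stood apart in WT (37.3 and 47.8 against 32.1 and 30.1 FPKM). The oocyte markers summed to 9799 and 10205 against 8943 and 9485 FPKM in Esrp1_KO. In WT they summed to 8874 and 9118 against 8513 and 8214 FPKM. Of these markers, Oosp1 was higher in replicates 2 and 3 in both genotypes and Bmp15 was lower. The part of length, depth or these markers in the split was not tested.

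Fits that use the split, the interaction below among them, are no independent check of the calls. The split was found in these data, and its sides hold the same libraries. Of the 7 genes called over all libraries, Psmb2, Psmd5, Psmd9, Psma1 and Psmg1 also passed in replicates 2 and 3 alone and in replicates 1 and 4 alone. Psmg1 had a log2 fold change of −1.93 in both, and Psma1 had −1.55 in replicates 2 and 3 and −1.86 in replicates 1 and 4. Psmb2 had 1.98 in replicates 2 and 3 and 1.48 in replicates 1 and 4. Psmc4 and Psmc6 passed in replicates 2 and 3 (log2 fold changes of 1.29 and 0.70) and not in replicates 1 and 4 (0.68 and 0.44). In all, 6 proteasome genes were higher and 2 lower of 34 in replicates 2 and 3, where 7.16% and 11.1% of all genes passed. In replicates 1 and 4, 3 were higher and 5 lower of 33, where 8.36% and 16.6% of all genes passed. Psma7 was the additional riser in replicates 2 and 3, and Psma4, Psmb3 and Psmd7 were the additional genes that fell in replicates 1 and 4.

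The difference between these 2 genotype effects was tested as the interaction of genotype and split. No proteasome gene and none of the 8021 genes passed an adjusted p of 0.05 (limma, smallest adjusted p = 0.945), and at an unadjusted p of 0.05, 2 proteasome genes and 325 genes (4.05%) did. Without WT replicate 4, 37 genes passed, none of them a proteasome gene, and without WT replicate 3, 1 gene passed. The 2 proteasome genes with the smallest p were the alpha subunit Psma4 and the lid subunit Psmd7. Psma4 had 14.04 and 9.45 FPKM in Esrp1_KO against 12.3 and 11.4 FPKM in WT in replicates 2 and 3, and 5.15 and 7.09 FPKM in Esrp1_KO against 12.1 and 10.6 FPKM in WT in replicates 1 and 4. Its effects differed by 0.78 (unadjusted p = 0.0373, limma) and those of Psmd7 by 0.53 (unadjusted p = 0.0421, limma). The effect was larger (more positive) in replicates 2 and 3 in 26 of the 34 genes and in 4734 of all 8021. With 2 libraries a side, a difference that did not pass does not show that the effects were alike.

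**Figure D4:**
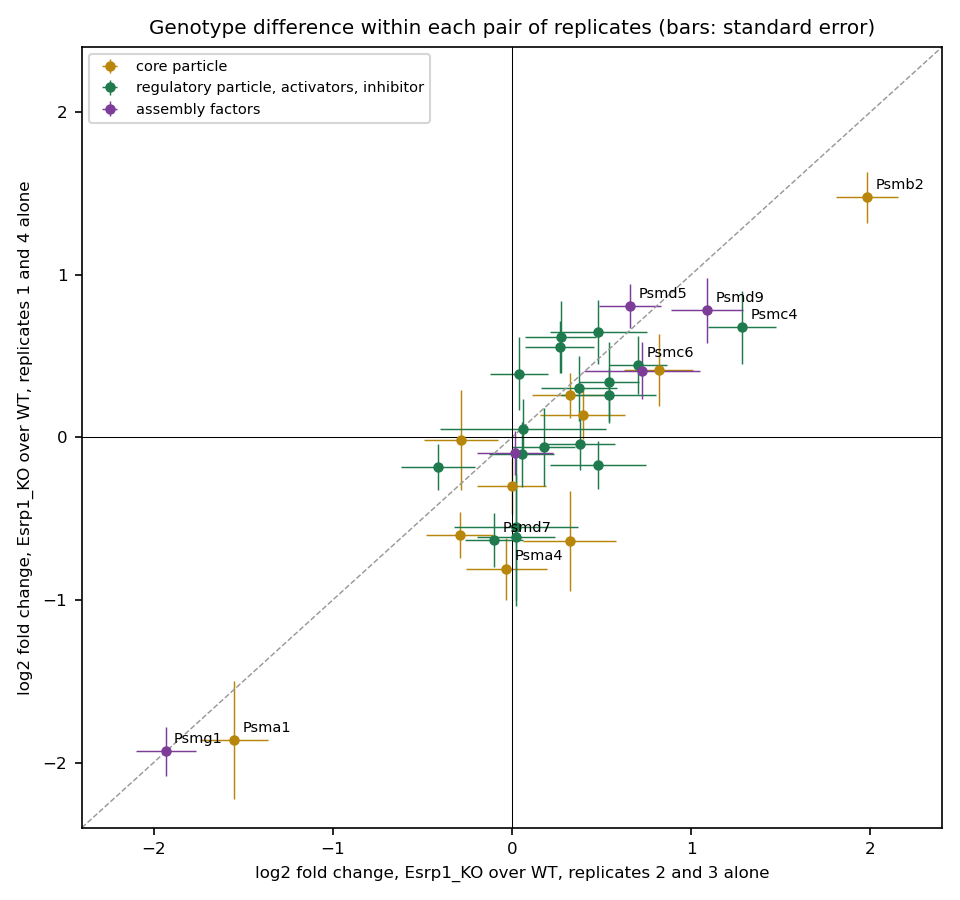
Log2 fold change, Esrp1_KO over WT, in replicates 2 and 3 alone (horizontal axis) and in replicates 1 and 4 alone (vertical axis) for the 33 proteasome genes tested on both sides, with bars of 1 standard error and a dashed line of equality. Psmg1 (−1.93 in both) lies on the line, and Psma4 and Psmd7, named for an unadjusted interaction p under 0.05, lie below it.

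The proteasome is served by a wider set of genes, and 25 of 27 such genes found from a list of receptors, deubiquitinases, shuttles and regulators were tested. Paaf1, also on that list, was not found by its symbol among the genes of the libraries. Of the 25 tested, 4 were higher in Esrp1_KO and 2 lower, together 24.0%, where 36.9% of all genes were called, and 19 were neither. Their median log2 fold change was 0.21. With the replicate block 8 were higher and 3 lower, against 17.2% and 25.3% of all genes. The block added Pomp, Vcp, Adrm1 and Zfand5 to those higher (adjusted p = 0.0140, 0.0157, 0.0382 and 0.0424, limma) and Sem1 to those lower (0.0308). Vcp encodes an unfoldase that hands substrates to the proteasome, Nploc4 a cofactor of it, Adrm1 a ubiquitin receptor, Zfand5 a proteasome activator and Sem1 a small lid subunit. Leaving out 1 library gave 3 to 6 higher and 2 lower. Pomp and Nploc4 passed as higher without Esrp1_KO replicate 1 (adjusted p = 0.0431 and 0.0370, limma), Vcp without Esrp1_KO replicate 3 (0.0308) and Adrm1 without WT replicate 1 (0.0202). The regulators of proteasome gene transcription went opposite ways. Nfe2l2 (also known as NRF2), which switches on proteasome genes under oxidative stress, had 1.82, 3.11, 3.36 and 2.50 FPKM in Esrp1_KO against 9.97, 11.6, 9.90 and 11.0 FPKM in WT, with no overlap (log2 fold change −1.67 ± 0.15, SE; adjusted p = 5.8e-05, limma). Nfe2l1 (NRF1), which does so when proteasome activity is short, had 22.4, 34.7, 21.3 and 22.3 FPKM in Esrp1_KO against 14.6, 18.1, 18.4 and 17.1 FPKM in WT (log2 fold change 0.51 ± 0.17, SE; adjusted p = 0.0372, limma). The call of Nfe2l1 was lost in 9 of 20 alternatives. It was lost without Esrp1_KO replicate 2 or 4 (adjusted p = 0.0503 and 0.0530, limma) and without WT replicate 1, 2, 3 or 4 (0.0994, 0.0558, 0.0578 and 0.0766).

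Of the other genes on this list that passed, Akirin2, which brings proteasomes into the nucleus, averaged 85.8 ± 11.6 FPKM in Esrp1_KO and 49.1 ± 9.19 FPKM in WT (SD, n = 4 each; log2 fold change 0.80 ± 0.16, SE; adjusted p = 0.00339, limma). Usp14, a deubiquitinase that docks on the base, averaged 27.6 ± 2.94 FPKM in Esrp1_KO and 16.9 ± 2.52 FPKM in WT (log2 fold change 0.68 ± 0.14, SE; adjusted p = 0.00454, limma). The proteasome-bound thioredoxin-like gene Txnl1 averaged 47.5 ± 5.56 FPKM in Esrp1_KO and 29.3 ± 6.57 FPKM in WT (adjusted p = 0.0122, limma). The ubiquitin ligase gene Ube3c, whose product extends ubiquitin chains at the proteasome, was lower, at 4.28 ± 0.540 FPKM in Esrp1_KO and 7.54 ± 1.37 FPKM in WT (log2 fold change −0.69 ± 0.14, SE; adjusted p = 0.00474, limma). Pomp, the maturation factor of the core particle, averaged 7.64 ± 4.11 FPKM in Esrp1_KO and 4.05 ± 1.13 FPKM in WT (adjusted p = 0.102 by limma and 0.0140 with the replicate block).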

How the data were processed

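RNA was measured in 8 libraries of MII oocytes, 4 Esrp1_KO and 4 WT, grouped by the genotype in the labels. Per the file headers, the authors deposited FPKM values per gene. Per the submitters' processing notes the build is GRCm38, while no source used here names the aligner, the counting tool or the annotation. Oocytes were lysed directly and amplified by Smart-seq2 per the labels' protocols, which keeps no strand. All listed genes whose GENCODE M21 symbol fits the pattern were taken as members and placed in classes by textbook role. The members, the gene lists, the replicate split and the tests were chosen with earlier results of these data known.

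Genes averaging 1 FPKM or more (8021) were fitted on log2(FPKM + 1) in limma 3.58.1 (R 4.3.3). The model held genotype alone, the prior variance followed mean expression, tests were two-sided, and p-values were adjusted by Benjamini-Hochberg for the whole table at a threshold of 0.05. This scale understates changes of low genes. Named are all members that passed, the most abundant member of each class, the 2 members at each end of the split and up to 4 passing pathway genes per direction. Others were chosen after their values were seen. Multiplied by M21 exon length, 90.0 to 90.6% of values above 0 fell within 0.02 of a whole read, which gave reads for 22661 genes, 42 of them members, and the library totals. A voom fit on these reads was added after the data were seen. On simulated data (8204 genes tested, Esrp1_KO against WT) the limma steps called 50.7% of the 67 genes given a 1.5-fold change. At 2-fold they called 92.5% of 67, and at 4-fold 100% of 66. Of the 170 calls made, 8 were false. The simulation held no replicate split and drew noise independently for each library. It changed far fewer genes than were called in the data, so its rates may not carry over.

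Same-numbered libraries of the genotypes deviated together, with a correlation over genes of 0.226 to 0.317 in all 4 pairs, taken from the replicate numbers in the labels. Between other numbers it ran from −0.407 to 0.402. The labels name no pairing, and the highest correlation was between different numbers. As an alternative, a fit with the replicate number as a block was set beside the calls it changed. Other alternatives were a pseudocount of 0.1, no filter, a mean of at least 5 FPKM, 4 scalings, the split as a second term, each side of the split alone and leaving out each library. A share of 50-base stretches recurring in other genes above 20% is given beside a gene. It was above 20% in 5 members, of which 2 (Psma5 and Psmd9) were tested. PCR copies were not marked, so reads are not independent molecules.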

Additional observations from a re-analysis of the deposited data

Results flagged for a closer look

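In 10 of 160 sets of 4 libraries (a gene named in the report, another gene of its lists or a summed class, in one genotype), the highest or lowest value stood further from its neighbour than the 95% limit for 4 values allows. Chance alone gives about 1 in 20, a rate that does not hold for sets with several values of 0. In WT, Psma1 was lowest in replicate 4, at 48.8 FPKM, still above all Esrp1_KO values. Psmd10, a chaperone of the base, was highest in Esrp1_KO replicate 2, at 22.7 FPKM. The transcription factor gene Nfe2l1 was also highest in Esrp1_KO replicate 2, at 34.7 FPKM. Psmd14, the lid deubiquitinase, was lowest in Esrp1_KO replicate 1, at 3.84 FPKM. Psmd8, a lid subunit, was highest in WT replicate 1, at 21.01 FPKM. Psmg4, a chaperone of the alpha ring, was highest in WT replicate 2, at 2.66 FPKM. The other sets concern genes near 0. With a single library above 0, as for Psmb8 and Psmb9 in Esrp1_KO and Psme1 in WT, the rule flags a set whatever the value. In Esrp1_KO replicate 3, the library with the highest immune marker sum, Psmb8 (0.0128 FPKM), Psmb9 (0.0191 FPKM) and Psme1 (0.0948 FPKM) each had their highest value. Psme1 was listed above 0 in a single WT library, replicate 1, at 0.0515 FPKM.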

How the results depend on the processing

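The 7 called proteasome genes gave 139 values under the alternatives. Of these, 134 kept their direction and their side of the threshold, 5 lost the call (Psmc4 once, Psmc6 in 4 settings) and none changed sign. Psmc4 was lost in replicates 1 and 4 alone (0.68, adjusted p = 0.0846, limma). The count of 5 higher genes became 8 with quantile normalization, 9 with median-ratio scaling, 11 with trimmed-mean scaling, 10 with the replicate block, 11 with the split as a second term and 3 in replicates 1 and 4 alone. The count of 2 lower genes became 5 in replicates 1 and 4 alone. Of all genes, 13.9% were higher in the main fit and 17.2% with the replicate block. With the split term 17.7% were higher, and in replicates 1 and 4 alone 8.36%. For quantile, median-ratio and trimmed-mean scaling no such share is given, also for the pathway genes below, and the median over all genes rose too. Leaving out 1 library gave 4 to 7 higher and 2 to 3 lower. Over all genes 2961 calls became 1664 among genes averaging at least 5 FPKM, which leaves 4290 tested, and 1448 in replicates 2 and 3 alone, and 2383 to 2866 without 1 library. The median over all genes tested, −0.06 on the log2 scale, became 0.03 with quantile, 0.05 with median-ratio and 0.06 with trimmed-mean scaling, and −0.12 with the common sum of nuclear genes. Of the pathway genes, 4 higher became 7 with median-ratio scaling, 7 with trimmed-mean scaling, 8 with the replicate block, 7 with the split term, 0 in replicates 2 and 3 alone and 2 with voom, where Usp14 and Txnl1 have no recovered reads. The 2 lower became 4 with the split term. Without 1 library 3 to 6 were higher. In replicates 2 and 3 alone each group has 2 libraries. The causes of the other shifts were not tested.

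The 27 genes that did not pass gave 530 values, of which 35 crossed the threshold (in 11 genes) and 31 changed sign. Signs turned in replicates 2 and 3 alone for Psma6 (0.32), Psmc1 (0.022), Psmd10 (0.017), Psmd12 (0.053) and Psmd14 (0.024), and in replicates 1 and 4 alone for Psmc5 (−0.039), Psmd8 (−0.059) and Psme4 (−0.17). Psmd10 turned to 0.032, 0.091 and 0.11 and Psmd12 to 0.070, 0.10 and 0.12 with quantile, median-ratio and trimmed-mean scaling. Psma2 turned to 0.000801 with trimmed-mean scaling and Psmd8 to −0.00231 with the nuclear sum. Without 1 library the log2 fold changes ran from −0.29 to 0.018 in Psma2, −0.41 to 0.13 in Psma6, −0.62 to 0.19 in Psmc1, −0.019 to 0.35 in Psmc5, −0.14 to 0.029 in Psmd10, −0.17 to 0.16 in Psmd12, −0.17 to 0.26 in Psmd6, −0.021 to 0.16 in Psmd8, −0.025 to 0.38 in Psme3 and −0.077 to 0.29 in Psme4. The count of 18 genes higher in replicates 2 and 3 in both genotypes stayed between 14 and 21 in all settings run.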

Other observations

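Of the wider list, Uba6, Ublcp1 and Uba1 were lowest in replicate 4 of both genotypes, a pattern noticed after the values were seen and not tested. The ubiquitin-activating enzyme gene Uba6 had 7.70, 12.8, 6.51 and 1.69 FPKM in Esrp1_KO replicates 1 to 4, against 9.04, 4.11, 8.69 and 0.775 FPKM in WT replicates 1 to 4. Ublcp1, a phosphatase that acts on the proteasome, had 14.2, 14.6, 7.44 and 2.34 FPKM in Esrp1_KO, against 6.68, 13.7, 11.5 and 2.08 FPKM in WT. Uba1, another ubiquitin-activating enzyme gene, varied less, with 4.37, 7.85, 4.53 and 3.74 FPKM in Esrp1_KO, against 3.93, 5.24, 4.30 and 3.27 FPKM in WT. In Uba6, Ublcp1 and Uba1 the genotypes overlapped.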
